A study of Rattus norvegicus with 13 samples.

Results

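The genes described here encode the protein side of mitochondrial energy production: the mitochondrial ribosome (mitoribosome), the respiratory chain complexes I to IV, the ATP synthase and a few of their assembly factors. They were chosen by gene symbol from the array annotation (symbols beginning with Mrpl or Mrps and a digit, Nduf, Cox4 to Cox8, Uqcr, Atp5 or Sdha to Sdhd), from probe sets that carried exactly 1 symbol. Where a gene had several probe sets, the one with the highest mean over the 13 arrays was used. This gave 151 of the 14506 genes measured. By symbol alone, 41 were counted to the large (Mrpl) and 27 to the small (Mrps) mitoribosome subunit. The place of each protein in the ribosome was not checked. Complex I gave 6 core and 26 accessory subunits and 3 assembly factors. There were 7 genes of complex II with its assembly factors, 7 of complex III, 16 of complex IV and 16 of the ATP synthase. The last 2 were pseudogene entries matched by symbol only (Cox6c-ps1 and Ndufs6-ps1). Cox6b1, Cox7a1 and Ndufa4l2 were not analysed here.

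The cells were cultured from adult Sprague Dawley rats, with no genetic change or treatment named in the labels. They were skin-derived precursors (SKPs), sphere-forming dermal cells, from dorsal, ventral or facial skin (3 isolates each), and 4 isolates of mesenchymal stromal cells (MSCs), and all had been passaged 2 times. The series title asks whether a neural crest-like dermal stem cell arises alike from skin of different embryonic origins. Neither the tissue of origin of the MSCs nor the culture media are stated in the labels. The arrays were treated as independent isolates, and p-values describe the spread between isolates on that basis. Whether the sample numbers pair isolates of different groups was not settled.

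Respiratory chain complexes pass electrons from NADH and succinate to oxygen, and all but complex II pump protons across the inner mitochondrial membrane, and the ATP synthase uses the resulting gradient to make ATP. Mitochondrial DNA encodes a small set of core subunits, which the mitoribosome translates. All genes described here are nuclear, and their products are imported and assembled with those core subunits. In cultured mesenchymal cells and stem cells these genes are broadly active, and a few subunits have isoforms that mark tissue type or oxygen supply.

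Values are log2 expression levels. Array medians lay between 4.91 and 5.01. Of 9 SKP markers, 6 were higher and 1 (Snai2) was lower in SKPs than in MSCs. Of 11 MSC and stromal markers, 4 were lower in SKPs (the contractile Tagln, Acta2, Cnn1 and Myl9) and 2 were higher, among them Vcam1. The mean over 20 macrophage and leukocyte markers was 4.05 to 4.73 on MSC, 5.12 to 5.45 on ventral, 4.14 to 7.19 on dorsal and 6.33 to 10.13 on facial SKP arrays. In MSCs the mean over these 20 markers (4.37) lay above the 25th percentile of all genes (3.83). Single markers of the list, Ptprc, Itgam and Adgre1, lay below it (means 3.64, 3.31 and 2.82). The mean over 7 endothelial markers was 4.93 to 5.59 on ventral arrays against 3.62 to 4.34 on all others. Of 11 fat and brown fat markers 3 were higher in SKPs, and of 6 keratinocyte markers none was called. Of 22 cell cycle genes, 21 were lower in SKPs than in MSCs (median -2.09). Fewer cells of a type and less RNA per cell cannot be told apart in these bulk samples.

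The promoters of the members on which the results turn are given here, to show the regulatory sequence next to the expression values that follow. Ndufa12 and Uqcrq were lower in SKPs of every region, and Ndufa3, Cox8a and Mrpl57 were high in ventral SKPs. Each runs 5′ to 3′ from 250 bases before to 50 after the gene start (RefSeq, assembly GRCr8, used for sequence only). Capitals mark matches on either strand to 4 motifs of factors known to act on such genes: NRF1 (GCGCANGCGC), the ETS family with GABP (CCGGAAG), YY1 (AAGATGGCG) and the hypoxia response core (ACGTG).
Ndufa12 (chr7:30658066-30658365, plus strand): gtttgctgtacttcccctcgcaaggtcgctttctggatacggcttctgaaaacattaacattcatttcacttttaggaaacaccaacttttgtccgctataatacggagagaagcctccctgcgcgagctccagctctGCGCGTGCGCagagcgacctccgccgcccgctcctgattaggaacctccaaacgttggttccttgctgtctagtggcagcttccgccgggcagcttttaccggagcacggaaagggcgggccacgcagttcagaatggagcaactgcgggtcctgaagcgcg
Uqcrq (chr10:38089929-38090228, minus strand): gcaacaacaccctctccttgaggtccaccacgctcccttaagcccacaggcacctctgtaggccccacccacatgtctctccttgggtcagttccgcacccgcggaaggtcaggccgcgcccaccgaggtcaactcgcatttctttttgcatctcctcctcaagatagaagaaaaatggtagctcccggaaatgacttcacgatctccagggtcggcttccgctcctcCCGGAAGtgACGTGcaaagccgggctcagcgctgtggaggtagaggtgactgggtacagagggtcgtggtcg
Ndufa3 (chr1:74515509-74515808, minus strand): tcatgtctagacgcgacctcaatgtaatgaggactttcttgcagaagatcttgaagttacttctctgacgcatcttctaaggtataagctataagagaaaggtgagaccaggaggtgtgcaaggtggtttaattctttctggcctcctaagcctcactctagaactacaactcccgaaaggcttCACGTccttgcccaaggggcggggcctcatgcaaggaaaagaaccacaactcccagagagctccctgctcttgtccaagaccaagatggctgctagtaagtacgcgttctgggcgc
Cox8a (chr1:213833574-213833873, minus strand): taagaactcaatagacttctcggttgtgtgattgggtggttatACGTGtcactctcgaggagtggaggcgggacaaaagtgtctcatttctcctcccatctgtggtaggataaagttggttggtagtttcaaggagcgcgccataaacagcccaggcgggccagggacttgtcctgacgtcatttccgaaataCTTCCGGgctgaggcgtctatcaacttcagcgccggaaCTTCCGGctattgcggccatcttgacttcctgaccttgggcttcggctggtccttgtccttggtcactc
Mrpl57 (chr15:36086207-36086506, plus strand): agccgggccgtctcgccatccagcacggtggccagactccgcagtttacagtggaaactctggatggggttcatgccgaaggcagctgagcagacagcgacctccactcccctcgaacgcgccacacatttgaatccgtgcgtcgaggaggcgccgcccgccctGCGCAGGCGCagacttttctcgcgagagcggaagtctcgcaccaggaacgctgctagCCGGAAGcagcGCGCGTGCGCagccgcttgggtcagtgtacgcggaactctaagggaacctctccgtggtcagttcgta
In these windows Ndufa12 held 1 NRF1 match and Uqcrq 1 ETS match and 1 hypoxia core. Ndufa3 held only a hypoxia core, Cox8a 2 ETS matches and a hypoxia core, and Mrpl57 2 NRF1 matches and 1 ETS match. No matches in the printed windows overlapped. Of all 27456 RefSeq promoters, 4.71% held the NRF1 motif, 9.22% the ETS motif, 1.93% the YY1 motif and 19.7% the hypoxia core. Among the 127 members with a promoter in the table these shares were 18.9%, 33.1%, 13.4% and 28.3%. A match says only that these letters are in the window.

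As a set the genes were expressed at steady levels in all 4 groups. Their mean was 7.67 to 7.89 on dorsal, 7.62 to 7.67 on facial, 7.73 to 7.82 on ventral SKP and 7.69 to 7.91 on MSC arrays. In all 4 groups 148 of 151 members lay above the 25th percentile of all genes, and 3 (Cox8b, Cox8c and Cox6c-ps1) lay below it in each. The median SD within a group was 0.10 to 0.21 for the members and 0.12 to 0.20 for all genes. No member differed between SKPs (mean of the 3 regions) and MSCs by 1 log2 unit or more, and 146 of 151 differed by less than 0.5. The 95% confidence interval lay within 1 log2 unit either way for 148 members, the exceptions being Cox4i2, Cox6a2 and Ndufa12.

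**Figure D1:**
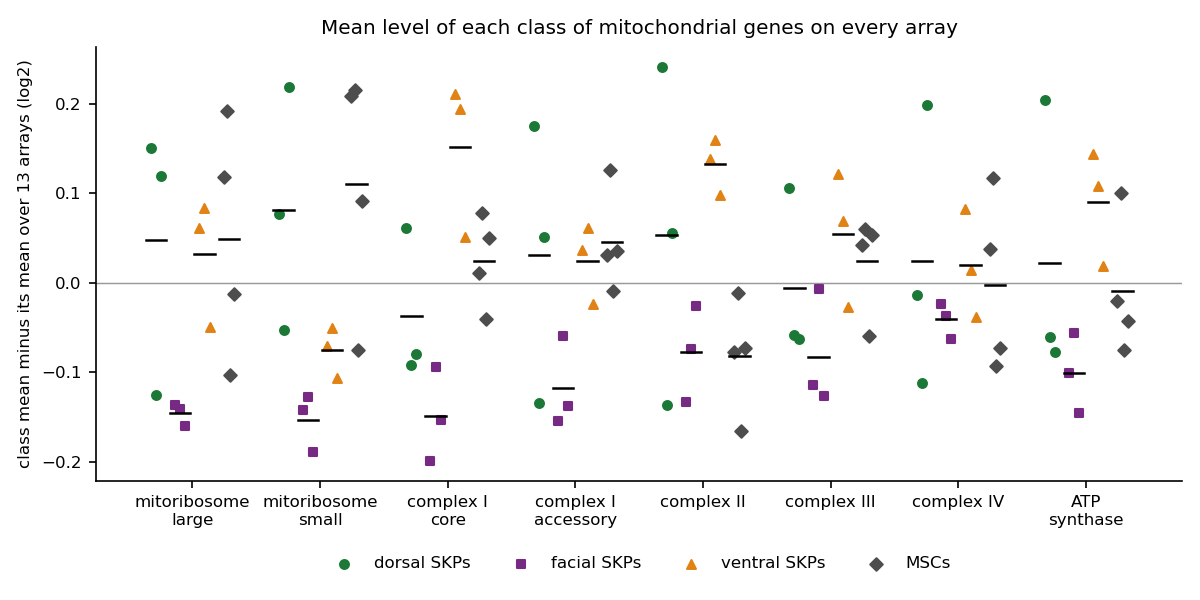
Mean log2 level of each class on every array, minus the mean of that class over the 13 arrays; points are single arrays, short bars group means. Facial arrays lie below 0 in all 8 classes. Of these classes, the MSC arrays spread the most in those of the mitoribosome and the dorsal arrays in complex II.

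Between SKPs and MSCs, 24 of 151 members were called, which means an adjusted p under 0.05 in limma over all genes (two-sided, Benjamini-Hochberg). This was 15.9% of members against 25.3% of all genes. Of them 8 were higher and 16 lower in SKPs (13.1% and 12.2% of all genes), and the median difference was -0.04 against -0.02 for all genes. With arrays centred on their medians the split was 5 higher and 20 lower. Without MSC array 4 the count was 14 and with the leukocyte marker mean as a covariate it was 10. Arrays of SKPs and MSCs did not overlap for 4 members (Ndufa12, Uqcrq, Mrps11 and Atp5po), against 12.6% of all genes.

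By number, complex I accessory genes held the most calls of any class, 6 lower and 2 higher of 26. This was 30.8% of the class against 25.3% of all genes. None of the 6 core genes was called. Ndufa12, an accessory subunit added late in complex I assembly, was lower in SKPs of every region. Dorsal arrays read 8.26, 8.56 and 8.50, facial arrays 8.65, 8.39 and 8.48 and ventral arrays 8.64, 8.65 and 8.27. The MSC arrays read 9.29, 9.62, 9.28 and 9.29. Every MSC array lay above every SKP array, and the 3 regions overlapped. The difference was -0.88 ± 0.11 (SE), 1.84-fold lower (limma adjusted p 8.62e-05). By region it was -0.93 (dorsal), -0.86 (facial) and -0.85 (ventral). These 3 comparisons share the MSC arrays. The facial call was lost with the leukocyte covariate (adjusted p 0.0926).

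Ndufa2, another accessory subunit, was lower in SKPs by 0.35 on the log2 scale (SE 0.08, adjusted p 0.00582). Most of that difference lay in ventral SKPs, where the arrays read 5.44, 5.36 and 5.38 against 5.99 to 6.17 on the 4 MSC arrays. Facial arrays (6.10, 5.96 and 5.91) overlapped those of MSCs. Ndufa7, Ndufa5, Ndufb7 and Ndufb8 were also lower, by between 0.36 and 0.46. These calls depended on single arrays: Ndufa7 lost its call without MSC 3 or MSC 4 (adjusted p 0.0565 and 0.0609), and Ndufa5 and Ndufb7 without MSC 1 or MSC 2 (0.0665 to 0.0969). Ndufb8 lost it without MSC 1, 2 or 3 or ventral 2 (0.0502 to 0.0919). Ndufa3 and Ndufc2 were higher, by 0.46 ± 0.12 and 0.39 ± 0.13, and both differences were largest in ventral SKPs, described below. Ndufc2 lost its call without any 1 of 9 arrays, all but the dorsal ones and facial 3 (adjusted p 0.0589 to 0.0968).

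The assembly factor Ndufaf1 was lower by 0.32 (SE 0.09, adjusted p 0.0257). It lost its call when MSC 1, 2 or 4 was left out (0.0627 to 0.0955). Complex II, which oxidises succinate, split: the flavoprotein gene Sdha was higher by 0.26 and the membrane anchor gene Sdhc lower by 0.26 (SE 0.08 each). Neither call was firm. Sdha lost it without any 1 of 9 arrays, all but dorsal 1, dorsal 3, facial 1 and MSC 2 (adjusted p 0.0501 to 0.106). Sdhc lost it without any 1 of 8 arrays, all but dorsal 1, dorsal 3, facial 2, ventral 2 and MSC 1 (0.0543 to 0.116). The iron-sulfur gene Sdhb and the anchor gene Sdhd differed by 0.02 and -0.05 (adjusted p 0.92 and 0.755).

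In complex III, which passes electrons from ubiquinol to cytochrome c, 1 of 7 genes was called (14.3%, against 25.3% of all genes). It was Uqcrq, a small subunit of the membrane part. Dorsal arrays read 7.94, 7.64 and 8.25, facial arrays 7.86, 7.84 and 7.59 and ventral arrays 7.65, 7.45 and 7.39. The MSC arrays read 8.51, 8.38, 8.47 and 8.52, all above the highest SKP array, a dorsal one. The difference was -0.74 ± 0.11 (adjusted p 0.000388), 1.67-fold lower. By region it was -0.53 (dorsal), -0.71 (facial) and -0.98 (ventral). The differences between regions did not pass the test (dorsal minus ventral 0.45 ± 0.15, adjusted p 0.0993). The dorsal call was lost without dorsal 1, dorsal 2 or MSC 4 (0.0511 to 0.0772). With the leukocyte covariate the dorsal and facial calls were lost (0.0534 and 0.313).

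Of the 16 genes of complex IV, the oxidase that reduces oxygen, 2 were higher in SKPs and none was lower. The share of higher calls, 12.5%, was near the 13.1% of all genes, and 12.2% of all genes were lower. Cox8a was higher by 0.30 (SE 0.08, adjusted p 0.0172), a difference that lay in ventral SKPs, and lost its call without MSC 4 (0.0684). Cox7a2l, which helps complexes III and IV join into supercomplexes, was higher by 0.52 (SE 0.14, adjusted p 0.0183). Its call was lost without MSC 1 or MSC 3 (0.061 and 0.0549). Ndufa4, named for complex I but known as a complex IV subunit, differed by -0.02 (SE 0.10). For the 16 ATP synthase genes the count was 2 higher and 2 lower, 12.5% each way and so near the shares of all genes. Atp5mg was higher by 0.38 and Atp5f1a, the alpha subunit of the catalytic head, by 0.21. Atp5mc1, for the membrane ring, was lower by 0.33 and Atp5po, for the stalk that joins head and membrane, by 0.30. Both of these lost their call with the leukocyte covariate (0.0867 and 0.103). Atp5mg lost its call without MSC 1 or 3 (0.0696 and 0.0666), and Atp5f1a without any 1 of 10 arrays, all but dorsal 1, dorsal 3 and MSC 2 (0.0601 to 0.14). The inhibitor gene Atp5if1 differed by 0.01 (SE 0.10).

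**Figure D2:**
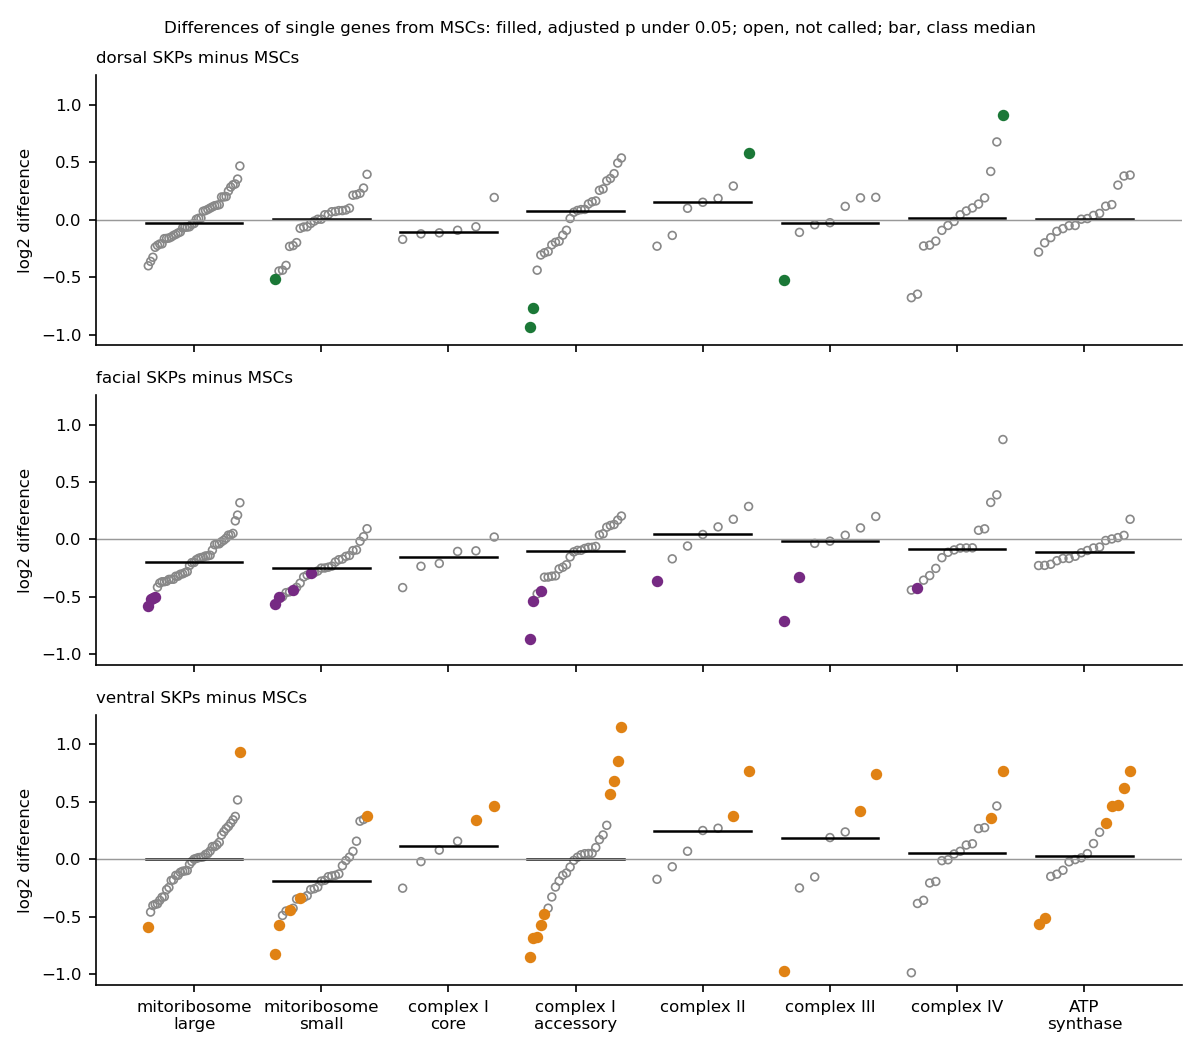
Log2 difference from MSCs of every member of the 8 classes of ribosomal proteins and complexes (assembly factors of complex I and the pseudogenes are not drawn), in dorsal, facial and ventral SKPs; filled points passed an adjusted p under 0.05, open points did not, and bars are class medians. No facial point above 0 is filled, and the ventral panel has filled points on both sides of 0 in complex I, complex III, the ATP synthase and both mitoribosome subunits.

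In the mitoribosome, 5 of 68 genes were lower and 1 was higher in SKPs (7.35% and 1.47%, against 12.2% and 13.1% of all genes). Of the differences, 49 of 68 were negative (median -0.11). Most of the calls were among the Mrps genes (4 of 27), counted here to the small subunit, which reads the messenger RNA. All 4 were lower, 14.8% of the class and near the 12.2% of all genes. Mrps11 was lower in every region. Dorsal arrays read 7.37, 7.39 and 7.35, facial arrays 7.64, 7.49 and 7.21 and ventral arrays 7.37, 7.35 and 7.23. The MSC arrays read 8.07, 7.72, 7.94 and 7.84, and no SKP array reached them. The difference was -0.51 ± 0.09 (adjusted p 0.00143). A dimmer probe set of Mrps11 gave -0.21 ± 0.10, which did not pass (adjusted p 0.213 among all probe sets), so the probe sets disagree in size. Its facial call was lost without facial 3 (0.0893). Mrps16 read 8.31, 8.38, 7.70 and 8.18 in MSCs and 7.06 to 7.83 in SKPs. MSC 3 alone lay within the SKP range, and the difference was -0.61 ± 0.13 (adjusted p 0.00467). With MSC 3 and 4 as the only MSCs, a setting chosen after seeing the data, its call was lost (0.0955).

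Mrps18c and Mrps12, both small subunit genes, were lower by 0.38 and 0.44. Mrps18c lost its call without MSC 2 or 4 (0.0656 and 0.056), and Mrps12 without any 1 of 10 arrays, all but dorsal 2, MSC 3 and MSC 4 (0.0515 to 0.136). In the large subunit, which forms the peptide bonds, Mrpl48 was lower by 0.37 and Mrpl57 higher by 0.38 (adjusted p 0.0421 and 0.0361). Mrpl48 lost its call without any 1 of 9 arrays, all but dorsal 3, facial 3, ventral 1 and MSC 1 (0.0524 to 0.143). Mrpl57 lost it without facial 2 or 3, ventral 1 or 2, or MSC 2, 3 or 4 (0.0512 to 0.115).

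The mitoribosome was lowest in facial SKPs. The mean over its 68 genes was 7.06, 7.07 and 7.03 on facial arrays, 7.32, 7.11 and 7.36 on dorsal, 7.21, 7.23 and 7.13 on ventral and 7.36, 7.40, 7.11 and 7.23 on MSC arrays. Every facial array lay below every other array, though the gap to dorsal 2 and MSC 3 was small. Between facial SKPs and MSCs, 59 of 68 differences were negative, with a median of -0.24 against -0.03 for all genes. None was called higher (9.47% of all genes), and 8 genes were called lower (11.8%, near the 9.58% of all genes). These were Mrpl54, Mrpl21, Mrpl36 and Mrpl48 of the large and Mrps16, Mrps18c, Mrps11 and Mrps26 of the small subunit. Mrpl54 had the largest difference, with 8.68, 8.49 and 8.59 in facial SKPs and 9.20, 9.32, 9.00 and 9.14 in MSCs. These arrays did not overlap, and the difference was -0.58 ± 0.16 (adjusted p 0.0224). Mrpl54 lost its call without facial 2, facial 3 or MSC 2 (0.0568 to 0.0795). Mrps16 was lower by 0.56 and lost its call without any facial array or without MSC 1, 2 or 4 (0.0686 to 0.114). Mrpl21 was lower by 0.50 and lost its call without facial 2 or 3 (0.0542 and 0.0576). Mrps18c was lower by 0.51, lost without facial 1 or 2 or MSC 2 or 4 (0.0502 to 0.08). Mrpl48 was lower by 0.51, lost without any 1 facial array, ventral 2, MSC 2 or MSC 4 (0.0515 to 0.135). Mrpl36 and Mrps26 were lower by 0.52 and 0.29, and each lost its call without any 1 of 9 arrays (0.0501 to 0.132). For Mrpl36 these were all but dorsal 1, dorsal 3, ventral 1 and MSC 3, and for Mrps26 all but the dorsal ones and MSC 3.

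Outside the mitoribosome, 7 facial genes were lower than in MSCs: Ndufa12, Ndufa5 and Ndufb8 of complex I, Sdhc, Uqcrq, Uqcrb and Cox5b, a structural subunit of complex IV. Cox5b read 8.04, 8.21 and 8.24 in facial SKPs and 8.68, 8.69, 8.44 and 8.53 in MSCs, without overlap. The difference was -0.42 ± 0.12 (adjusted p 0.0283). Cox5b lost its call without any 1 facial array, MSC 1 or MSC 2 (0.0534 to 0.107). Ndufa5 was lower by 0.54, a call lost without facial 2 or 3 or MSC 1, 2 or 4 (0.0503 to 0.116). Ndufb8 was lower by 0.45, lost without facial 1 or 2, any 1 ventral array or MSC 1, 2 or 3 (0.0571 to 0.164). Sdhc was lower by 0.36, lost without facial 1 or 3 or MSC 2 or 4 (0.0549 to 0.108). In all, 15 of 151 members (9.93%) were lower and none was higher, against 9.58% lower and 9.47% higher among all genes (19% in all). Arrays did not overlap for 49 members, against 30.1% of all genes. The share of lower calls was thus near that of all genes, and the share of higher calls was below it. At an unadjusted p under 0.05, limma gave 40 lower and 2 higher members (27.8% of members against 31% of all genes).

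The facial count of 15 moved both ways with the settings. It was 25 with array weights and 25 with arrays centred on their medians. It was 6, 5 and 5 without facial 1, 2 and 3, and 9, 5 and 7 without MSC 1, 2 and 4. The share of all genes called in each of these settings is not given here, so the shifts may not be particular to the members. Of the 20 leukocyte markers, 17 were higher in facial SKPs than in MSCs (median 3.40). With their mean as a covariate in limma, no member was called, and 10 members were lower and 1 was higher at an unadjusted p under 0.05 (7.28% of members against 18.5% of all genes). In that fit 55 of 68 mitoribosome differences were negative, a count over genes measured on the same arrays. The part of leukocytes in the facial differences was not tested. Over 26 alternative settings the median mitoribosome difference ran from -0.31 to -0.13.

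Facial and dorsal SKPs did not differ in any single member by the adjusted test, with 1.25% of all genes called (0.793% higher and 0.462% lower in facial SKPs). Without dorsal 2, the dorsal array with the lowest member mean, 8 members were lower in facial SKPs and none was higher. At an unadjusted p under 0.05 in limma, 21 members were lower and 2 higher in facial SKPs, 15.2% of members against 14.5% of all genes. Still, 129 of 151 differences were negative, with a median of -0.16 against -0.04 for all genes. In the mitoribosome 61 of 68 were negative (median -0.22). The smallest adjusted p among the members was 0.0636, for Cox5b, which read 8.68, 8.51 and 8.97 in dorsal SKPs.

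Ventral SKPs held the most calls of the 3 regions, counting both directions together. Against MSCs, 33 of 151 members were called (21.9%, against 24.4% of all genes), 20 higher and 13 lower (13% and 11.4% of all genes). Arrays did not overlap for 56 members, against 37.9% of all genes. Among the 73 subunits of the respiratory chain and ATP synthase, 16 were higher and 8 lower (32.9%), with a median of 0.04 against -0.04 for all genes. Among the 68 mitoribosome genes 2 were higher and 5 lower. Without ventral 1 the count over all members was 21, without ventral 3 it was 19, and with array weights it was 52. Of 7 endothelial markers, 5 were higher in ventral SKPs than in MSCs, among them Pecam1 (6.19 against 3.57, group means), and their part in the ventral differences was not tested.

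The higher subunits came from every complex. In complex I they were the core iron-sulfur genes Ndufs1 and Ndufs7 and the accessory genes Ndufa3, Ndufb4, Ndufc2 and Ndufb2. Ndufa3, a small protein of the membrane arm, read 8.43, 8.37 and 8.24 in ventral SKPs and 7.22, 7.24, 7.04 and 7.29 in MSCs. Dorsal arrays read 7.14, 7.16 and 7.70 and facial arrays 7.07, 7.49 and 7.35. Ventral arrays stood above all others, and the other 3 groups overlapped. The difference from MSCs was 1.15 ± 0.15 (2.22-fold, adjusted p 0.000203). Facial minus ventral was -1.04 ± 0.16 (adjusted p 0.00312) and dorsal minus ventral -1.01 ± 0.16 (0.00463). These comparisons share the ventral arrays. With the leukocyte covariate the facial minus ventral call was lost (0.0859).

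Ndufb4 read 7.78, 7.73 and 8.01 in ventral SKPs and 6.84, 7.08, 6.95 and 7.08 in MSCs, a difference of 0.85 ± 0.22 (adjusted p 0.0152). The dorsal arrays were split, with 8.16 on dorsal 1 and 7.12 and 7.17 on the others. Its call was lost without ventral 3 (0.0684), while a dimmer probe set of Ndufb4 gave 0.76 ± 0.16 (adjusted p 0.00638 among all probe sets). Ndufc2, of the membrane arm, was higher by 0.68 (SE 0.16, adjusted p 0.00821) and kept its call in all 26 alternatives. Ndufb2 was higher by 0.57, lost without ventral 3 (0.0546). Ndufs7 and Ndufs1, which carry iron-sulfur clusters, were higher by 0.46 and 0.34. Ndufs7 lost its call with MSC 1 and 2 as the only MSCs (0.0686), and Ndufs1 without any 1 ventral array, MSC 3 or MSC 4 (0.0529 to 0.11). Sdha of complex II was higher by 0.38 (SE 0.10), lost without ventral 3 (0.0615).

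In complex III, Uqcrb, which lies near the ubiquinone site, moved in opposite directions in 2 regions. It read 10.56, 10.53 and 10.51 in ventral and 9.48, 9.53 and 9.37 in facial SKPs. Dorsal arrays read 9.88, 9.51 and 9.66 and MSC arrays 9.65, 9.83, 9.80 and 9.88. Ventral arrays lay above and facial arrays below all MSC arrays, and dorsal arrays overlapped the MSCs. Against MSCs the ventral difference was 0.74 ± 0.10 (adjusted p 0.000295) and the facial one -0.33 ± 0.10 (0.0425). Facial minus ventral was -1.07 ± 0.11 (0.000291), the largest called difference between regions among the members. The other 2 probe sets of Uqcrb gave -1.07 and -1.04 for it. The facial call against MSCs was weak: it was lost without any 1 of 9 arrays, all but the dorsal ones and MSC 1 (0.0613 to 0.149), and when all probe sets were tested (0.0627). Uqcrfs1, the Rieske iron-sulfur protein, was higher in ventral SKPs by 0.42 (SE 0.14, adjusted p 0.0474), and lost its call without any 1 of 8 arrays, all but dorsal 1, dorsal 2, facial 3, ventral 3 and MSC 1 (0.0502 to 0.159).

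In complex IV, Cox8a, the common isoform of subunit VIII, read 11.31, 11.21 and 11.34 in ventral SKPs. It was 10.48, 10.60, 10.63 and 10.37 in MSCs, 10.43, 10.63 and 10.63 in dorsal and 10.75, 10.64 and 10.46 in facial SKPs. Ventral arrays stood above all others, and the rest overlapped. The difference from MSCs was 0.77 ± 0.10 (1.70-fold, adjusted p 0.000261), and dorsal minus ventral was -0.73 ± 0.11 (0.00387). Cox5a, another structural subunit, was higher by 0.36, lost without facial 1, any 1 ventral array or MSC 2, 3 or 4 (0.0555 to 0.117). Among ATP synthase genes 5 were higher. Atp5mk, a small membrane subunit linked to synthase dimers, read 8.55, 8.50 and 8.40 in ventral SKPs and 7.87, 7.94, 7.92 and 7.74 in MSCs. Dorsal arrays read 7.43, 7.66 and 7.67 and facial arrays 7.82, 7.68 and 7.60. Ventral minus MSCs was 0.62 ± 0.10 (adjusted p 0.000783) and dorsal minus ventral -0.90 ± 0.11 (0.000744). Atp5mg, Atp5pd, Atp5f1a and Atp5pb were higher by 0.77, 0.48, 0.46 and 0.31. The first 3 kept their call in all 26 alternatives, and Atp5pb lost it without any 1 of 9 arrays, all but the dorsal ones and MSC 2 (0.0523 to 0.14).

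**Figure D3:**
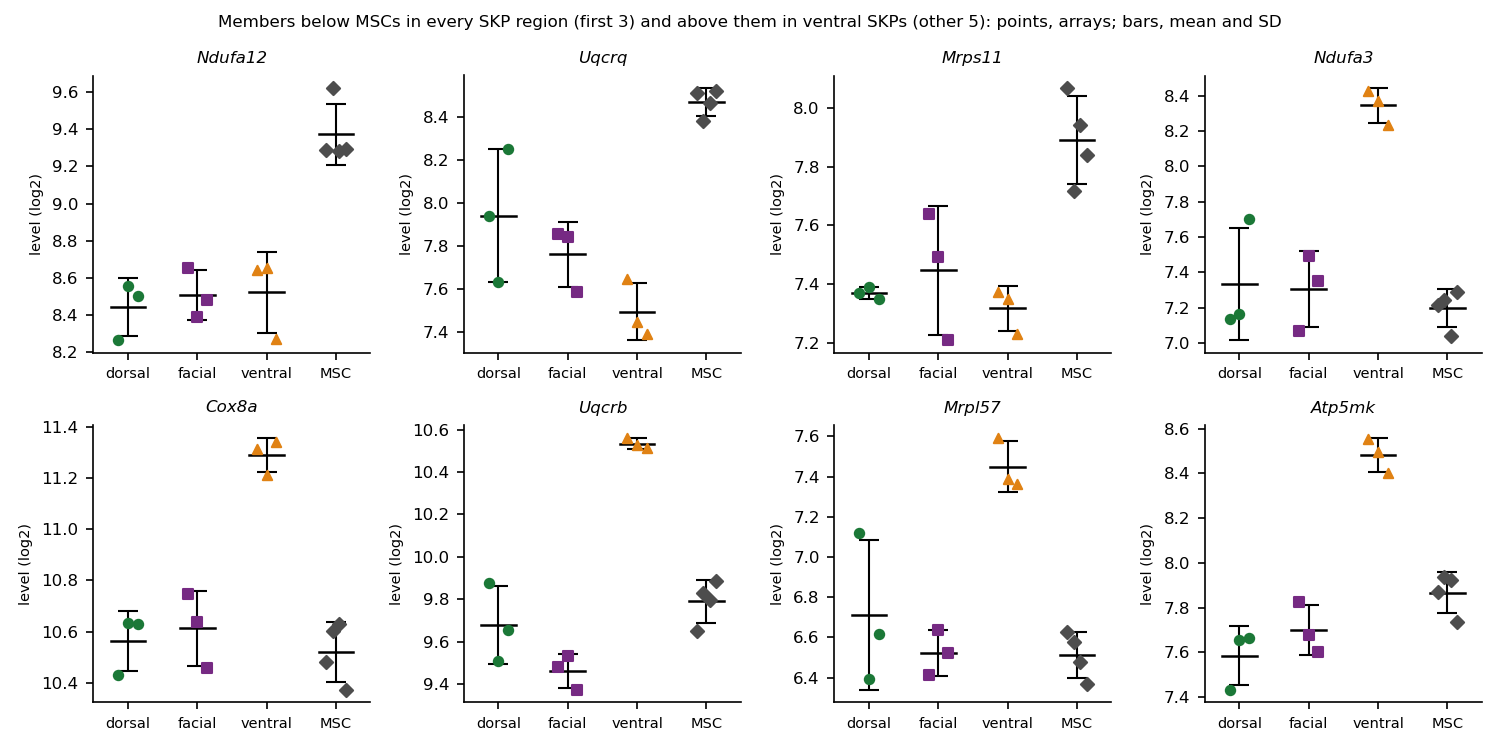
Log2 levels of 8 members on every array, with group means and SDs (n = 3 for each SKP region, n = 4 for MSCs); each panel has its own axis. Ndufa12, Uqcrq and Mrps11 lie below all MSC arrays in each region, and Ndufa3, Cox8a, Uqcrb, Mrpl57 and Atp5mk are highest on the 3 ventral arrays.

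Other ventral gains lay outside the chain. Mrpl57 of the large mitoribosome subunit read 7.59, 7.39 and 7.36 in ventral SKPs, 6.63, 6.58, 6.48 and 6.37 in MSCs, 6.41, 6.64 and 6.52 in facial and 7.12, 6.39 and 6.62 in dorsal SKPs. Its difference from MSCs was 0.94 ± 0.15 (1.91-fold, adjusted p 0.000954). Sdhaf3, an assembly factor of complex II, was higher by 0.77 (SE 0.22, adjusted p 0.0251), lost without any 1 ventral array, MSC 2 or MSC 3 (0.0552 to 0.079). Ndufaf4 and Mrps34 were also called higher. Ndufaf4 lost its call without any 1 ventral or MSC array (0.0506 to 0.113), and Mrps34 without facial 1 or 2, any 1 ventral array or MSC 3 or 4 (0.0502 to 0.137).

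Lower in ventral SKPs were the accessory genes Ndufa12, Ndufa10, Ndufa2, Ndufb7 and Ndufa7, Uqcrq, Atp5mc1 and Atp5po, and 5 mitoribosome genes. Mrps16 had the largest of the mitoribosome differences, -0.82 ± 0.17 (adjusted p 0.00362). Atp5mc1 read 7.60, 7.57 and 7.47 in ventral SKPs and 8.10, 8.35, 7.97 and 8.03 in MSCs, a difference of -0.56 ± 0.10 (0.00215). Ventral and MSC arrays did not overlap for Atp5mc1. Ndufa10 was lower by 0.68 and lost its call without ventral 1 or ventral 3 (0.0815 and 0.0532). Ndufa7 lost its call without any 1 of 10 arrays, all but dorsal 1, dorsal 3 and MSC 2 (0.0527 to 0.126). Mrps18c lost it without any 1 ventral array or MSC 1, 2 or 4 (0.0541 to 0.117). Mrpl10 lost it without ventral 1 or 3 or MSC 1 or 2 (0.0601 to 0.0904), and Mrps5 without ventral 1 or 3 or MSC 2 (0.0524 to 0.103). Within complex I and the ATP synthase, genes of 1 complex passed the test in both directions in the same arrays.

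**Figure D4:**
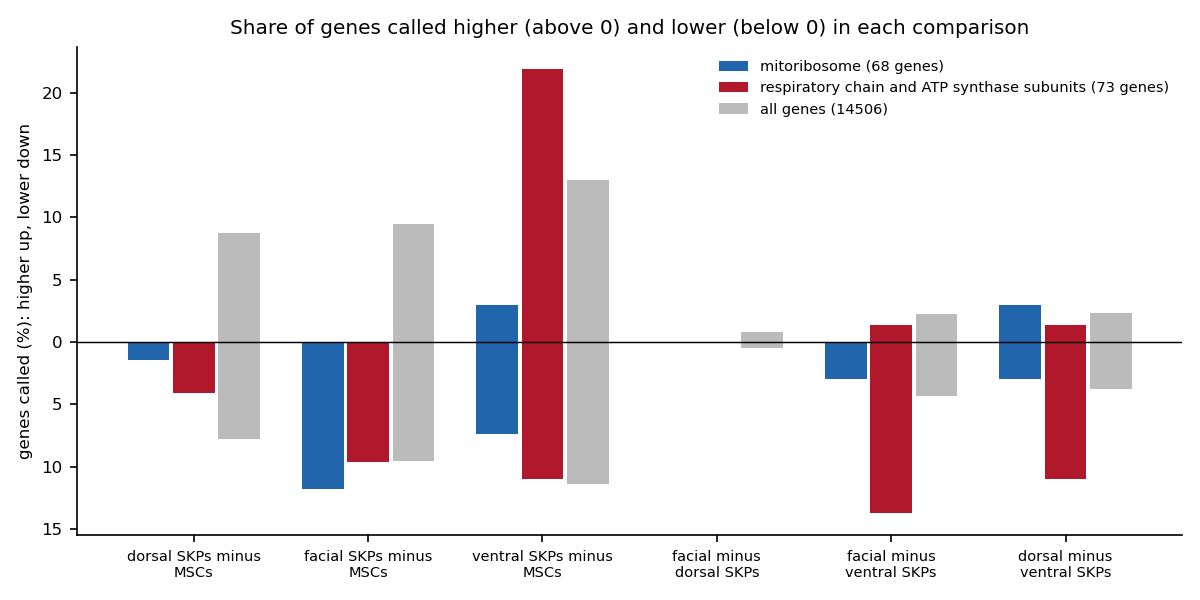
Percent of the 68 mitoribosome genes, the 73 respiratory chain and ATP synthase subunits and all 14506 genes called higher (bars above 0) or lower (bars below 0) in the 6 comparisons of regions with MSCs and with each other. The highest bar is that of the chain and synthase subunits in ventral SKPs against MSCs (21.9% higher, all genes 13%).

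Ventral SKPs were also compared with the other regions. Facial minus ventral, 13 of 151 members were called (8.61%, against 6.6% of all genes), 12 lower in facial SKPs and only Ndufa2 higher (4.36% and 2.25% of all genes). Arrays did not overlap for 64 members, against 36.4% of all genes. Dorsal minus ventral, 13 were called (8.61%, against 6.11%), 10 lower and 3 higher in dorsal SKPs (3.76% and 2.35% of all genes). Arrays did not overlap for 47 members, against 28.7% of all genes. With arrays centred on their medians the dorsal minus ventral split was 10 lower and none higher. In the 73 chain and synthase subunits the counts were 10 lower and 1 higher for facial, and 8 lower and 1 higher for dorsal. Without ventral 1, 2 or 3 the dorsal minus ventral count was 6, 6 and 7. Without ventral 1 or ventral 3 the facial minus ventral count was 8, without dorsal 3 it was 20, and with the leukocyte covariate it was 4. It was 34 with array weights and 27 with only the groups compared in the fit, where the dorsal minus ventral count was 4. The leukocyte covariate also ended the facial minus ventral calls of Cox8a and Ndufa2 (0.116 and 0.113).

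Lower in facial than in ventral SKPs, besides those described, were Atp5mg, Atp5pd, Ndufb2, Ndufs1, Ndufs7, Cox5a and Mrpl51. Atp5mg had the largest of these differences, -0.78 ± 0.14 (adjusted p 0.00915), lost with the leukocyte covariate (0.0508). Mrpl51 read 8.46, 8.33 and 8.33 on facial and 8.99, 9.04 and 9.05 on ventral arrays (-0.65 ± 0.13, adjusted p 0.0122), lost without ventral 3 (0.0511). Atp5pd lost its call without ventral 1 (0.0541), Ndufb2 without facial 1 or 3 or ventral 1 or 3 (0.0529 to 0.0729), and Ndufs1 without any 1 facial or ventral array (0.0588 to 0.117). Cox5a lost it without any 1 array outside the dorsal group (0.0515 to 0.128), and Ndufs7 without any 1 of these other than MSC 3 (0.0537 to 0.168). The 3 genes higher in dorsal than in ventral SKPs were Mrps2, Mrps5 and Ndufa6, by 0.70, 0.41 and 0.58. All 3 calls were lost without any 1 of 7 to 12 arrays: for Mrps2 all but dorsal 1, facial 2, facial 3 and MSC 1 to 3 (0.0516 to 0.141), for Mrps5 all but dorsal 2, facial 1 and MSC 3 (0.0519 to 0.152), and for Ndufa6 all but dorsal 2 (0.0536 to 0.177). Mrps17 of the small subunit was lower in dorsal SKPs, with 7.72, 8.06 and 7.54 against 8.53, 8.55 and 8.48 (-0.74 ± 0.14, adjusted p 0.00971). Mrps17 lost its call with only these groups in the fit (0.0608). Some further dorsal minus ventral calls were lost without 1 array: Atp5f1a without any ventral one (0.0609 to 0.0696), Atp5pd without dorsal 2 or ventral 1 or 2 (0.0623 to 0.0987), and Mrpl57 without dorsal 2 or 3 or any ventral one (0.0534 to 0.0975). Ndufs1 lost it without any 1 of 11 arrays, all but dorsal 1 and MSC 3 (0.0548 to 0.156).

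Dorsal SKPs had the fewest calls of the 3 regions against MSCs. There 7 of 151 members were called (4.64%, against 16.5% of all genes), 3 higher and 4 lower (8.77% and 7.76% of all genes), and the median difference was 0.00 against 0.01 for all genes. The count was 11 without dorsal 2, 11 without MSC 3, 4 without MSC 4, and 4 with only these groups in the fit. Lower were Ndufa12, Uqcrq and Mrps11, described above, and Ndufb6. Ndufb6, of the membrane arm of complex I, read 7.66, 8.31 and 8.17 on dorsal arrays. Facial arrays read 8.57, 8.40 and 8.49, ventral arrays 9.20, 8.85 and 8.92 and MSC arrays 8.70, 8.88, 8.68 and 9.00. The dorsal arrays were below all others, and dorsal minus MSCs was -0.77 ± 0.16 (adjusted p 0.0053). Dorsal minus ventral was -0.94 ± 0.17 (0.00848), a call lost with only these groups in the fit (0.0671).

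Higher in dorsal SKPs than in MSCs were Cox7a2l, Sdhaf1 and Ndufaf4. Cox7a2l read 9.60, 9.05 and 9.91 against 8.45, 8.58, 8.51 and 8.90 in MSCs, with no overlap (0.91 ± 0.18, adjusted p 0.00518). Facial arrays (9.08, 9.05 and 8.85) and ventral arrays (8.91, 9.02 and 8.73) overlapped the MSCs, and the facial arrays also overlapped the dorsal ones. Sdhaf1, an assembly factor of complex II, was higher by 0.58 and lost its call without dorsal 1 or MSC 1, 2 or 4 (0.0582 to 0.0863). Ndufaf4, an assembly factor of complex I, was higher by 0.39 and lost its call without any 1 of 10 arrays, all but dorsal 2, facial 1 and facial 3 (0.0506 to 0.128).

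Complex IV has isoforms that mark tissue type, and none of those measured differed between SKPs and MSCs past the test, apart from the common form Cox8a. Cox4i1, the common form of subunit IV, read 9.21 to 10.19 in SKPs and 9.70 to 9.92 in MSCs, a difference of -0.11 ± 0.14 (adjusted p 0.644). Cox4i2, the form known from lung and from low oxygen, split the MSCs into 7.79 and 7.74 on arrays 1 and 2 and 4.08 and 4.46 on arrays 3 and 4. Facial arrays read 6.63, 6.97 and 7.05, dorsal arrays 5.22, 5.27 and 5.52 and ventral arrays 5.34, 5.21 and 4.53. Facial arrays lay above all dorsal and ventral ones and between the MSC pairs. No difference passed the test (SKPs minus MSCs -0.27 ± 0.63, adjusted p 0.807; facial minus dorsal 1.55 ± 0.86, 0.441). SKPs minus MSCs was -2.01 against MSC 1 and 2 alone and 1.48 against MSC 3 and 4 alone, which follows from these levels and is no test, since the pairs were chosen after the values were seen. The MSC pairs also differed in the mean over 23 hypoxia and glycolysis genes (10.06 and 9.84 against 9.17 and 9.32), whose part in the Cox4i2 split was not tested.

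Cox6a2, the heart and skeletal muscle form of its subunit, read 8.33 on dorsal 3 and 4.66 to 5.91 on the other 12 arrays. Of 15 striated muscle markers none was higher and 3 were lower in SKPs than in MSCs. By region, none was higher and 2 were lower in dorsal SKPs, 1 was higher and 3 lower in facial and 3 higher and 1 lower in ventral SKPs. Their mean on the dorsal arrays was 4.33 to 4.39, and the part of muscle cells in the Cox6a2 level was not tested. On dorsal 3 the hypoxia and glycolysis mean was the highest of the series (10.47) and the cell cycle mean the lowest (5.27), and their part in the Cox6a2 level was not tested. Its common partner Cox6a1 read 10.73 to 11.14 in SKPs and 11.03 to 11.19 in MSCs (-0.16 ± 0.08, adjusted p 0.154). Cox6b2, the testis form, read 4.32 to 4.86 in SKPs and 4.59, 4.71, 5.24 and 5.86 in MSCs. Cox7a2 differed by 0.02 (SE 0.08). Cox8b, the muscle form, read 2.81 to 3.67 and Cox8c, the testis form, 2.86 to 3.89, and their group means lay below the 25th percentile.

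**Figure D5:**
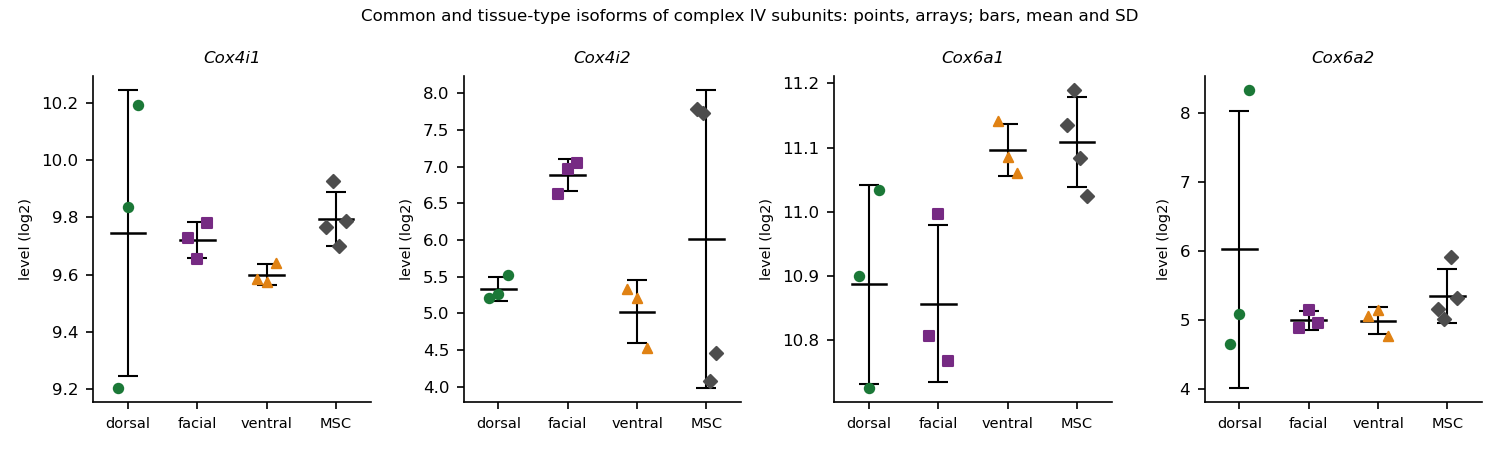
Log2 levels of 2 isoform pairs of complex IV subunits on every array, with group means and SDs; each panel has its own axis. Cox4i2 separates MSC arrays 1 and 2 from 3 and 4, and Cox6a2 is high on 1 dorsal array.

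Genes that serve these complexes from outside were counted in the same fit, SKPs against MSCs. In this comparison 13.1% of all genes were higher and 12.2% lower, and the counts of each list are to be read beside these shares. The single genes named from the lists were not recomputed in the alternative settings. Of 25 further assembly factors, 3 were higher and 4 lower (median 0.02). Among them Timmdc1, a complex I assembly factor, was higher by 0.45, and Atpaf1, which assembles the head of the ATP synthase, and Bcs1l, which inserts the Rieske protein into complex III, were lower by 0.64 and 0.48. Of 9 electron carriers and entry enzymes, 3 were lower and none higher. Etfb and Etfa, the subunits of the flavoprotein that carries electrons from fatty acid oxidation, were lower by 0.96 (SE 0.14, adjusted p 0.000431) and 0.49. Etfb was lower in dorsal, facial and ventral SKPs by 0.94, 0.86 and 1.08.

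Of 20 genes of mitochondrial translation and mitoribosome assembly, 2 were lower, the elongation factor genes Gfm2 and Tufm, by 0.34 and 0.25. Of 11 mitochondrial tRNA synthetases, Lars2 and Nars2 were higher (0.56 and 0.39) and Pars2 and Tars2 lower (-0.47 and -0.46). Of 20 regulators of mitochondrial gene expression, 1 was higher and 3 lower. Ppargc1b, a coactivator of mitochondrial genes, was higher by 1.04 (SE 0.12, adjusted p 8.33e-05), and its relative Pprc1 was lower by 0.47. Of 14 TCA cycle genes, Suclg2 and Pdhb were higher (0.31 and 0.23) and Idh3a lower (-0.42). Of 19 import genes 3 were lower, among them Timm17a and Timm44. Of 23 hypoxia and glycolysis genes, only Car9 was called, lower by 2.40.

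Isolates of 1 region differed from each other by more than 1 log2 unit in few members. On dorsal 1, Ndufs5, Ndufb4 and Sdhaf3 stood 1.31, 1.04 and 1.09 above dorsal 2. Over all 151 members the median of dorsal 1 minus dorsal 2 was 0.22 (0.00 for all genes), and 115 members lay lower on dorsal 2 than in the mean of the other dorsal arrays. Mrps18b on dorsal 3 stood 1.14 and 1.16 above dorsal 1 and 2. Over all genes dorsal 3 was the isolate furthest from its region. It differed by more than 1 log2 unit from dorsal 1 and 2 in 9.55% and 7.67% of genes, against 2.07% between dorsal 1 and 2. Its array weight was the lowest of the series (0.285). Its mean over the 9 SKP markers was 7.19, against 8.29 and 8.40 on dorsal 1 and 2. All dorsal results include this array unless it is named as left out. No member differed by that much within the facial or the ventral isolates. Among MSCs it was Cox4i2, Cox6b2 and Mrps18b, and 121 members lay lower on MSC 3 than in the mean of the other MSC arrays. The MSC arrays also fell into pairs over all genes. Between MSC 1 and 2, 0.758% of genes differed by more than 1 log2 unit, and between MSC 3 and 4, 2.25%. Across these pairs it was 4.61% to 6.58%, and the cause was not tested. On ventral 3, 115 members lay lower than in the mean of the other ventral arrays. The median gap was -0.08 there, -0.20 on dorsal 2 and -0.13 on MSC 3. Array 3 of the MSCs, array 2 of the dorsal and array 3 of the ventral SKPs were thus low for most of the set.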

How the data were processed

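Cultured SKPs (3 isolates each from dorsal, facial and ventral skin) and 4 MSC isolates were measured on Affymetrix whole-transcript rat gene arrays. The deposited values are log2 expression levels that the authors made with RMA in Affymetrix Expression Console (gene-core analysis), per the labels; no version is given there. Limma is also named, per the submitters' processing notes. RMA puts all arrays on a common distribution, so a shift of total RNA cannot be seen. Precision is limited by how many arrays each group has.

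Of 29215 probe sets, 15310 carried 1 gene symbol in the platform annotation, 323 several and 13582 none. Those with 1 symbol gave 14506 genes, each by its brightest probe set on average. Of the 151 members 15 had several probe sets, and 2 probe sets that matched the rule but named several genes were left out. All 151 matched RefSeq by Entrez number. Members with pseudogenes or close paralogs may share probes, and their values are uncertain.

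Limma (3.58.1, in R 4.3.3) fitted 4 group means to all 13 arrays, with a two-sided test. P-values were adjusted over all 14506 genes by the Benjamini-Hochberg method, and calls needed an adjusted p below 0.05. SKPs minus MSCs uses the mean of the 3 regions. The fit was tested on simulated data. Named were the 3 called members per class and direction with the largest difference (SKPs minus MSCs), the 5 per direction in each regional comparison, and the isoform pairs and complex II subunits. Other called members are named because the counts were small, chosen after their values were seen. Members and lists were chosen with earlier results of these data known. Alternatives were the variance prior, array weights, the arrays in the fit, centring, a filter on low levels, probe set choices, a replicate block, a leukocyte covariate and leaving out arrays. Chip lots or scan batches were not used here.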

Additional observations from a re-analysis of the deposited data

Results flagged for a closer look

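In 116 checks of array groups for a value far from the others, 6 were found, near the rate of about 1 in 20 that chance alone gives. That rate is only a rough guide. The 9 SKP arrays were checked as 1 group over the regions, and many of the genes checked had been picked for their differences. MSC 2 stood apart from the other MSC arrays for Ndufa12 (9.62, the others 9.28 to 9.29) and Atp5po (8.77). Among the 9 SKP arrays, dorsal 3 stood apart for Cox6a2 (8.33), dorsal 1 for Sdhaf1 (7.18) and facial 3 for Sdhd (9.05). The mean over the complex III genes was 8.8 on MSC 3, below the other MSC arrays (8.91 to 8.92).

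Uqcrb was higher than in MSCs in ventral SKPs and lower in facial SKPs, and the test of the difference between these regions gave -1.07 for facial minus ventral (limma adjusted p 0.000291). Its facial difference from MSCs lost its call without any 1 of 9 arrays.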

How the results depend on the processing

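Of 181 recounts of members called, 143 lay within 1.5 times the count as reported. Leaving out each array in turn gave 14 to 31 for SKPs minus MSCs, 4 to 11 for dorsal, 5 to 22 for facial and 19 to 38 for ventral SKPs minus MSCs, 0 to 8 for facial minus dorsal, 8 to 20 for facial minus ventral and 6 to 15 for dorsal minus ventral. With array weights the counts were 25 for facial and 52 for ventral SKPs minus MSCs and 34 for facial minus ventral. With only the groups compared in the fit they were 4 for dorsal SKPs minus MSCs, 1 for facial minus dorsal, 27 for facial minus ventral and 4 for dorsal minus ventral. Centring arrays gave 25 for facial SKPs minus MSCs, where it moved the median of all genes from -0.03 to -0.10. With the leukocyte covariate the counts were 10 for SKPs minus MSCs, 0 for facial SKPs minus MSCs (limma, 11 members at an unadjusted p under 0.05) and 4 for facial minus ventral. In settings chosen after seeing the data, MSC arrays 3 and 4 as the only MSCs gave 10 for SKPs minus MSCs, 8 for facial SKPs minus MSCs and 1 for facial minus dorsal, and MSC arrays 1 and 2 gave 1 for facial minus dorsal. The replicate block gave 13 for SKPs minus MSCs, 4 for dorsal and 3 for facial SKPs minus MSCs and 8 for dorsal minus ventral. Whether the numbers pair the samples was not settled. Same-numbered arrays correlated at -0.12 to 0.2 over 18 pairs, with 1 over 0.1, and 6 of 12 arrays lay closest to their own number. With so few arrays per number, these values cannot exclude pairing. The recounts here and above stand without the share of all genes called in the same setting. They thus do not show whether a shift is particular to the members. The cause of these shifts was not tested.

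Of 3305 recomputed values of single members, 2690 kept their direction and side of the threshold, 591 fell short of it, 23 newly passed it and 1 reversed. That one was Cox4i2, SKPs minus MSCs, which was 1.48 with MSC arrays 3 and 4 as the only MSCs. Its low values on those arrays were known when they were chosen, so this restates the split between MSC arrays and is no test. Of 105 calls, 31 held in every alternative run, 60 were lost without some 1 array and 53 with the leukocyte covariate.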
